A study of Mus musculus with 9 samples.

Results

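The 32 genes described here encode the glucose transporters, the enzymes of glycolysis, the proteins that decide the fate of pyruvate and lactate, and a set of genes known to respond to low oxygen. They were chosen by gene symbol, with earlier results of these data known, and all 32 were found among the 54146 genes of the deposited table. The RNA was that of CD4+CXCR5+PD1+ T follicular helper (Tfh) cells, the T cells that help B cells in germinal centres, sorted from the Peyer's patches of mice. The WT/mut group (n = 5 libraries, replicates 6 to 10) carried 1 mutant and 1 wild-type allele of Tgfbr1, which encodes a subunit of the TGF-beta receptor. The WT group (n = 4 libraries, replicates 1, 3, 4 and 5) came from wild-type littermates. The labels used here give no treatment, age or kind of mutation, and they tie no library to an animal. The tests therefore weigh differences against the spread between libraries, which may be technical.

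Glycolysis splits glucose into pyruvate in the cytosol and yields ATP without oxygen, and activated T cells are known to raise it. Pyruvate either enters mitochondria or is reduced to lactate and exported. When oxygen is plentiful, prolyl hydroxylases mark the factor HIF-1alpha for degradation; when it is scarce, HIF-1alpha accumulates and turns on many glycolytic genes, together with genes that slow pyruvate entry into mitochondria.

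Total counts per library lay between 29488783 and 43872686. All 12 T cell and Tfh markers were present, with Cxcr5 between 1110.1 and 1380.3 CPM (counts per 1000000 of the library size, TMM-scaled) and Cd4 between 614 and 965.7 CPM over the 9 libraries. The summed level of these 12 markers was lower in WT/mut (8987 to 9569 CPM) than in WT (10351 to 10898 CPM), with no overlap. Taken singly, Icos (749 to 922 against 1038 to 1226 CPM) and Il21 (398.7 to 531.5 against 532.3 to 772 CPM) did not overlap, and the others did. A positive log2 fold change (WT/mut over WT) was found for 3 of the 12. Sums of 8 red cell and platelet markers were higher, at 402 to 870.04 against 98.9 to 283 CPM, again with no overlap. The sums of 14 plasma cell markers (2328 to 3428 against 2217 to 2796 CPM), 18 B cell markers (1370.4 to 2596 against 1025 to 2039.9 CPM), 18 epithelial markers (56.3 to 505 against 251 to 1053 CPM), 15 myeloid and dendritic markers (67.7 to 326 against 69.4 to 199.9 CPM), 12 stromal and endothelial markers (178 to 230.2 against 145 to 204 CPM) and 18 proliferation genes (577 to 857 against 552 to 589 CPM) overlapped. Ighm, the largest part of the plasma cell sum, was at 1438 to 1959 against 1740 to 2313 CPM. Igha (155 to 657.5 against 13.7 to 86.5 CPM) and Jchain (58.0 to 243 against 12.0 to 42.3 CPM) did not overlap. Nor did Eaf2 (2.47 to 7.06 against 0.527 to 2.04 CPM) and Iglc1 (3.85 to 125 against 1.17 to 2.47 CPM). Of 12 plasma cell markers tested, 7 were higher at an unadjusted edgeR p under 0.05 (5.69% of all genes) and 0 lower (6.46%). At that p, 5 of 12 T cell and Tfh markers were lower and 0 higher. Higher at that p were 5 of 6 tested red cell and platelet markers, 5 of 18 proliferation genes and 3 of 17 B cell markers, with 0 lower. In the remaining lists, 1 of 6 stromal and endothelial markers was higher and 1 of 17 epithelial markers lower. A positive log2 fold change was found for 17 of 17 B cell markers, 16 of 18 proliferation genes and 2 of 17 epithelial markers. No marker was at 0 in all 9 libraries. Fits adjusted for the epithelial or the plasma cell share are given below as alternatives. The part of these cells in the results was not tested beyond that, and in bulk libraries fewer cells of a type and less RNA per cell cannot be told apart. WT/mut replicate 7 stood apart, with 30143 genes detected against 17904 to 20264 in the others, so the main counts are also given without it.

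All 32 members passed the filter on low counts, and their lowest count in any library was 41. Per kilobase of exon, the highest mean level over the 9 libraries belonged to Hif1a (599 CPM per kb), the gene of the oxygen-regulated factor itself. Next came the aldolase gene Aldoa (548 CPM per kb), the pyruvate kinase gene Pkm (444 CPM per kb) and Gapdh (382 CPM per kb). These levels rest on the length of all bases exonic in any annotated transcript, such as 5896 for Hif1a and 4133 for Gapdh. With the lengths of the transcripts present in these cells, the order of these genes could differ. The lowest levels were those of the hexokinase gene Hk2 (0.340 CPM per kb) and of Vegfa, which encodes an angiogenic growth factor (1.02 CPM per kb). The Tfh cells thus held far more transcript of the other hexokinase gene, Hk1 (37.3 CPM per kb). In all, the 32 genes took between 1.44% and 1.66% of all counts in the WT/mut libraries and between 1.40% and 1.57% in the WT libraries, ranges that overlapped.

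Between the genotypes, 0 of the 32 members passed the edgeR test (adjusted p under 0.05), which called 0.122% of all 15521 genes tested. At an unadjusted p under 0.05, 7 members were higher in WT/mut cells, where the share over all genes was 5.69%, and 1 was lower, where it was 6.46%. The 7 were P4ha1, Gpi1, Egln1, Pfkp, Slc16a3, Pdk1 and Tpi1, and the lower one was Ldhb. For 5 members all WT/mut libraries lay above all WT libraries, a separation found for 2.09% of all genes, and 0 members were separated in the other direction (2.38% of all genes). Because the members were chosen with earlier results of these data known, these shares are a description and not a test of the list. In all, 23 members had a positive and 9 a negative log2 fold change (WT/mut over WT), with a median of 0.12 against 0.0015 over all genes tested. That median was 0.0317 and 0.0449 when the fit was adjusted for epithelial or plasma cell markers, and 0.0743, 0.0637 and 0.0567 without WT/mut replicate 7, WT replicate 4 and WT replicate 5. Here and below, the plasma cell adjustment used the summed share of that list, whose largest part was Ighm. Igha and Jchain, whose groups did not overlap, were smaller parts of it. DESeq2, run as an alternative, called 3 members, P4ha1, Gpi1 and Egln1, all higher. Of the 12185 genes to which DESeq2 gave an adjusted p, it called 1.17% as higher and 2.32% in either direction. Without WT/mut replicate 7, 5 members were higher and 0 lower at an unadjusted p under 0.05, and for 5 the groups were apart. The shares of 5.69%, 6.46% and 2.09% over all genes are those of all 9 libraries and were not computed without this one.

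**Figure D1:**
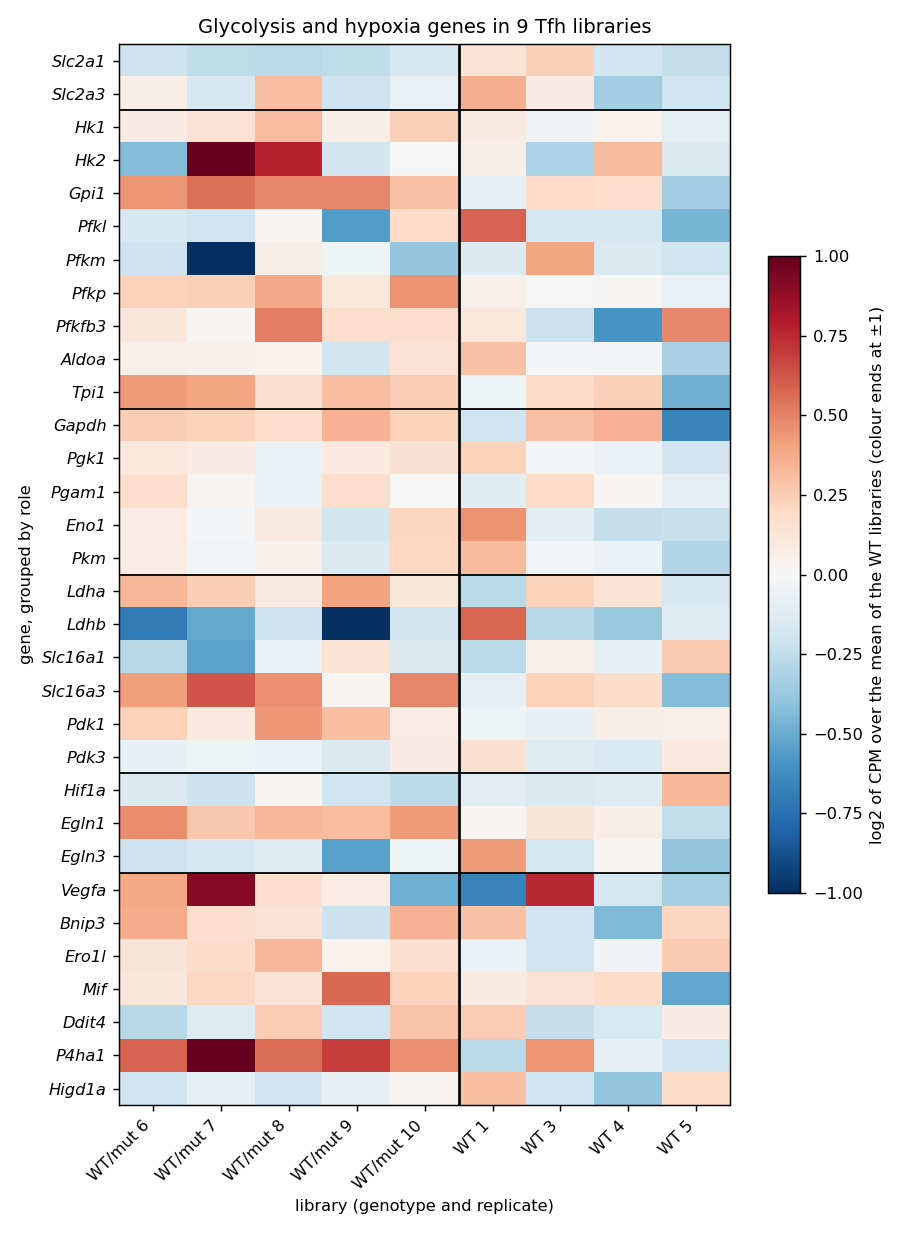
Each cell is the log2 of a gene's CPM in 1 library over its mean in the 4 WT libraries, with the 32 genes in rows grouped by role and the 9 libraries in columns. The rows of Gpi1, Pfkp, Pdk1, Egln1 and P4ha1 are above every WT library in all 5 WT/mut libraries, while WT replicates 1 and 5 differ from the other 2 WT libraries in many rows.

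The member with the lowest p was P4ha1 (ENSMUSG00000019916.14, GRCm38 chr10:59323296-59373304), which encodes a catalytic subunit of the prolyl hydroxylase that matures collagen. Its level was 146, 198, 143, 157 and 133 CPM in WT/mut replicates 6 to 10 and 80.8, 132, 92.0 and 84.5 CPM in WT replicates 1, 3, 4 and 5. WT/mut replicate 7 was the highest and WT replicate 3 stood just under the lowest WT/mut library, so the groups were apart by a small gap. The log2 fold change was 0.68 ± 0.16 (SE, edgeR adjusted p = 0.187; DESeq2 adjusted p = 0.00799), and it was 0.57 without WT/mut replicate 7. The 2 groups' means were 156 ± 25.1 CPM (SD, n = 5) and 97.3 ± 23.5 CPM (SD, n = 4).

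Gpi1 (ENSMUSG00000036427.5, chr7:34201330-34230336) encodes glucose-6-phosphate isomerase, which turns glucose 6-phosphate into fructose 6-phosphate. It was measured at 391, 421, 403, 404 and 352 CPM in WT/mut replicates 6 to 10 and at 272, 328, 324 and 226 CPM in the WT libraries. WT replicates 1 and 5 were low, and the other 2 lay closer to the WT/mut range. The difference was 0.46 ± 0.12 on the log2 scale (edgeR adjusted p = 0.218; DESeq2 adjusted p = 0.0201), and 0.35 without WT replicate 5.

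Egln1 (ENSMUSG00000031987.6, chr8:124908587-124949324) encodes PHD2, the main prolyl hydroxylase acting on HIF-1alpha. Its levels were 152, 133, 138, 136 and 148 CPM in WT/mut replicates 6 to 10, against 112, 121, 115 and 93.1 CPM in WT replicates 1, 3, 4 and 5. The spread within each group was small, at 142 ± 8.30 CPM (SD, n = 5) and 110.2 ± 12.0 CPM (SD, n = 4). WT/mut libraries were higher by 0.36 ± 0.10 on the log2 scale (edgeR adjusted p = 0.244; DESeq2 adjusted p = 0.0322). Egln3, the gene of the related hydroxylase PHD3, was measured at 132 ± 16.6 and 153 ± 38.5 CPM, and the ranges overlapped (105 to 149 and 116 to 206 CPM). Hif1a itself stood at 3383, 3225, 3802, 3259 and 3130.4 CPM in WT/mut replicates 6 to 10 and at 3466, 3392, 3424 and 4707 CPM in WT replicates 1, 3, 4 and 5. WT replicate 5 was far above the rest, and the other WT libraries lay inside the WT/mut range. For Hif1a the log2 fold change was -0.16 ± 0.12 (edgeR adjusted p = 0.585), -0.0295 without WT replicate 5 and -0.0844 by limma-voom.

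Pfkp (ENSMUSG00000021196.14, chr13:6579768-6648777) is 1 of 3 genes for phosphofructokinase, the enzyme that commits sugar to glycolysis. Levels were 866, 869, 959, 795 and 1008 CPM in WT/mut replicates 6 to 10. In WT replicates 1, 3, 4 and 5 they were 764, 739, 741 and 705 CPM, a narrow range. WT/mut exceeded WT by 0.29 ± 0.09 on the log2 scale (edgeR adjusted p = 0.283; DESeq2 adjusted p = 0.0514). Pitrm1, on the opposite strand, overlaps Pfkp at a mean of 9.30% of the WT level of Pfkp, and the library kit did not mark strand. Pfkl, the gene of the liver-type subunit, was at 320.4 to 539 CPM in WT/mut and 341 to 709.6 CPM in WT, where replicate 1 was the highest. The muscle-type gene Pfkm was at 6.90 to 14.7 and 12.3 to 18.6 CPM. Its opposite-strand neighbour Senp1 had 789.8% of its level, so reads of the 2 genes may not be separable. Pfkfb3, whose product makes the activator of phosphofructokinase, was at 47.3 ± 6.60 and 41.0 ± 12.9 CPM.

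Pdk1 (ENSMUSG00000006494.11, chr2:71873224-71903858) encodes pyruvate dehydrogenase kinase 1, which switches off pyruvate dehydrogenase. It was at 103, 93.8, 119, 108 and 92.5 CPM in WT/mut replicates 6 to 10 and at 85.0, 83.7, 91.7 and 91.1 CPM in the WT libraries. The lowest WT/mut library exceeded the highest WT library by less than the SD of either group. The log2 fold change was 0.23 ± 0.10 (edgeR adjusted p = 0.388). Pdk3, another kinase of the same family, was at 97.1 ± 5.63 and 100.2 ± 10.9 CPM.

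**Figure D2:**
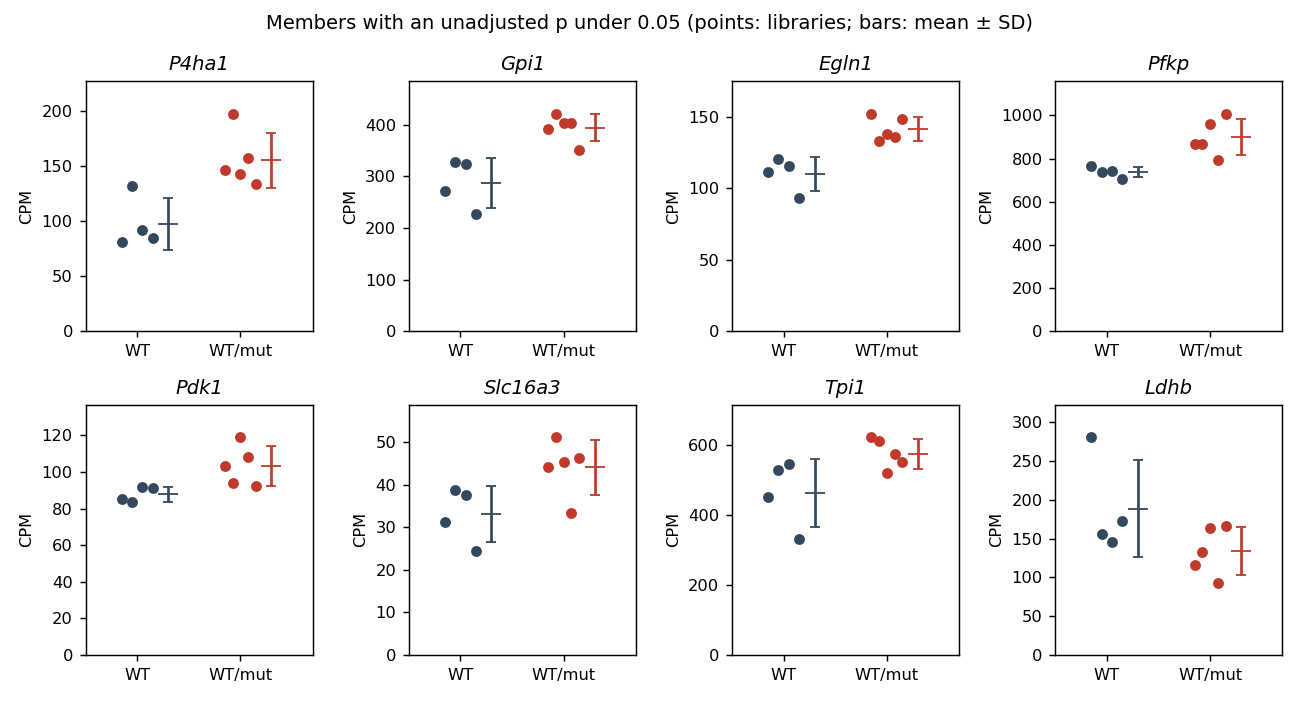
CPM of the 8 members with an unadjusted p under 0.05, with 1 point per library and the mean ± SD beside the points (WT n = 4, WT/mut n = 5), on linear axes that start at 0. The groups are apart for P4ha1, Gpi1, Egln1, Pfkp and Pdk1 and overlap for Slc16a3, Tpi1 and Ldhb, where WT replicate 1 of Ldhb stands at 280.4 CPM.

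The 250 bases before the start of these 5 separated members are printed because HIF binds a short core, ACGTG or GCGTG, that can stand in such promoters. The sequences are those of RefSeq on GRCm38.p6, read 5′ to 3′ on the strand of the gene, with matches to either core on either strand in capitals. P4ha1 (chr10:59323046-59323295, plus strand) held 3 matches, Egln1 (chr8:124949255-124949504, minus strand) 2, Pfkp (chr13:6648772-6649021, minus strand) 3, the upstream start of Pdk1 (chr2:71872974-71873223, plus strand) 1 and Gpi1 (chr7:34230337-34230586, minus strand) 0. A downstream start of Pdk1 (chr2:71874654-71874903, plus strand), not printed, held 0.
P4ha1: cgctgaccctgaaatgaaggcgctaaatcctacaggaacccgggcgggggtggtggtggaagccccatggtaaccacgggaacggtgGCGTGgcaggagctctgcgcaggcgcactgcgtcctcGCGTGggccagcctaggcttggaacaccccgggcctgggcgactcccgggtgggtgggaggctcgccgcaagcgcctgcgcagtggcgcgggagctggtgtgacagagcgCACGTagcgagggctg
Egln1: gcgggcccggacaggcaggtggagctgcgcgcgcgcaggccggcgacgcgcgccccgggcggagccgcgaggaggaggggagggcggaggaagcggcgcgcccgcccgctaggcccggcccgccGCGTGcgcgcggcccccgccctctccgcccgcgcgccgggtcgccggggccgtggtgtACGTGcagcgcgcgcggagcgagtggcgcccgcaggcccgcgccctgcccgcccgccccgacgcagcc
Pfkp: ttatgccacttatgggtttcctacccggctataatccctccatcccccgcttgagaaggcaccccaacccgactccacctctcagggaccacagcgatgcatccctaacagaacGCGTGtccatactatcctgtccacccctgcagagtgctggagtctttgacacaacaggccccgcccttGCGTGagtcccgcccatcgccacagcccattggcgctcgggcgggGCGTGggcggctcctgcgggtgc
Pdk1: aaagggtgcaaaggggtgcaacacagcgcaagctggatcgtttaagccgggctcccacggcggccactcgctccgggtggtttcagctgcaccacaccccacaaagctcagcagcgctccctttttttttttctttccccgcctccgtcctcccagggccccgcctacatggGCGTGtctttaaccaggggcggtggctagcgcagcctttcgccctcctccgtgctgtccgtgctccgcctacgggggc
Gpi1: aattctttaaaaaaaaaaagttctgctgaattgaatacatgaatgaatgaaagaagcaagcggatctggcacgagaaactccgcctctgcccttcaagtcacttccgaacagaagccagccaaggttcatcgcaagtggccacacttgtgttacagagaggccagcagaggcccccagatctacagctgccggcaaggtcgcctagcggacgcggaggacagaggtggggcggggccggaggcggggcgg
RefSeq promoters were found for 31 of the 32 members, Slc2a3 having none in the table, and Ero1l was matched under its newer symbol. A core stood in 35 of the 44 promoters of the members (79.5%) and in 38.6% of all 32851 promoters of the same length. The members' promoters were also richer in G and C (62.3% against 53.2%), and the share of promoters with a match was not compared at equal base composition. The ACGTG core lies within CACGTG, the sequence bound by MYC and related factors, which stood in 6 of the members' promoters (13.6%) and in 6.02% of all promoters. A match describes the letters only, and the absence of one in Gpi1 says only that these letters are not in this window.

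Glucose enters T cells through GLUT1 and GLUT3, the products of Slc2a1 and Slc2a3. Slc2a1 was at 97.8, 94.5, 93.5, 94.8 and 100.4 CPM in WT/mut replicates 6 to 10 and at 124, 133, 99.0 and 95.5 CPM in WT replicates 1, 3, 4 and 5. The WT/mut libraries were nearly alike, while WT replicates 1 and 3 were high and WT replicates 4 and 5 lay among the WT/mut values. The log2 fold change was -0.23 ± 0.11 (edgeR adjusted p = 0.432), and -0.14 without WT replicate 3. Slc2a3 was at 89.9 ± 13.5 and 89.8 ± 19.9 CPM (SD, n = 5 and n = 4).

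Among the other early steps, Tpi1, which encodes triosephosphate isomerase, was at 621, 609, 518, 572 and 550.3 CPM in WT/mut and at 449, 527, 545 and 332 CPM in WT replicates 1, 3, 4 and 5. WT replicates 3 and 4 lay inside the WT/mut range, and WT replicate 5 was low. The log2 fold change was 0.31 ± 0.14 (edgeR adjusted p = 0.404) and 0.18 without WT replicate 5. Hk1 was at 335 ± 24.7 and 297 ± 17.4 CPM (log2 fold change 0.17 ± 0.09). Aldoa, which encodes the aldolase that cleaves the doubly phosphorylated sugar, was at 1637, 1634, 1620.4, 1397 and 1749 CPM in WT/mut replicates 6 to 10 and at 1942, 1561, 1559.8 and 1266 CPM in the WT libraries. The lowest and the highest of the 9 libraries were thus both WT, and the log2 fold change was 0.02 ± 0.12. Hk2, the member with the fewest counts, was at 1.23 to 4.39 CPM in WT/mut and 1.34 to 2.07 CPM in WT, and the highest value was that of WT/mut replicate 7. Its log2 fold change of 0.48 ± 0.46 was 0.12 without that library, 0.0530 when adjusted for detected genes and -0.0914 when adjusted for plasma cell markers.

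All 5 genes of the later steps had log2 fold changes between 0.04 and 0.25, and 0 of them had an unadjusted p under 0.05. When the fit was adjusted for epithelial markers, Pkm (-0.0425) and Eno1 (-0.12) turned negative. Gapdh, the glyceraldehyde-3-phosphate dehydrogenase gene often taken as a reference, was at 1695, 1683, 1619.6, 1820.0 and 1680.5 CPM in WT/mut replicates 6 to 10. In WT replicates 1, 3, 4 and 5 it was at 1245, 1755, 1821 and 907 CPM. The WT/mut libraries agreed closely (coefficient of variation 4.32%), whereas the WT libraries differed up to 2.01-fold (30.3%). Its log2 fold change of 0.25 was 0.0803 without WT replicate 5, 0.39 without WT replicate 4, 0.13 by limma-voom and 0.47 when adjusted for epithelial markers. Pkm was at 2302, 2145, 2258, 1983 and 2526 CPM in WT/mut and at 2722, 2142, 2106 and 1785 CPM in WT, where replicate 1 was the highest and replicate 5 the lowest of all 9 libraries. Pgk1 (phosphoglycerate kinase) was at 380.1 ± 20.8 and 361 ± 44.9 CPM and Pgam1 (phosphoglycerate mutase) at 353 ± 26.6 and 338 ± 34.5 CPM. Eno1 (enolase) was at 969 ± 96.5 and 939.9 ± 233 CPM. Its near-identical copy Eno1b held another 56.4% of that level, and how reads shared by the 2 genes were divided between them is uncertain. Summed, they stood at 1517 ± 170.5 and 1469 ± 409 CPM.

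At the fate of pyruvate, the 2 lactate dehydrogenase genes had fold changes of opposite sign. Ldha, whose subunit favours the making of lactate, was at 1011, 948, 852, 1059 and 866 CPM in WT/mut replicates 6 to 10 and at 666, 941, 882 and 718 CPM in WT replicates 1, 3, 4 and 5. WT replicates 3 and 4 lay inside the WT/mut range (log2 fold change 0.24 ± 0.12, edgeR adjusted p = 0.447), and limma-voom gave 0.14. Ldhb, whose subunit favours the use of lactate, was at 116, 132, 163, 92.7 and 166 CPM in WT/mut and at 280.4, 156, 146 and 173 CPM in WT. WT replicate 1 was highest by a wide margin. The log2 fold change was -0.49 ± 0.22 (edgeR adjusted p = 0.404), and it was -0.23 without WT replicate 1, with an unadjusted edgeR p of 0.228.

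Slc16a3, the gene of the lactate exporter MCT4, was at 44.1, 51.2, 45.4, 33.5 and 46.4 CPM in WT/mut replicates 6 to 10. In WT replicates 1, 3, 4 and 5 it was at 31.3, 38.8, 37.6 and 24.5 CPM. WT/mut replicate 9 fell within the WT range, and the other 4 lay above it. On the log2 scale the difference was 0.42 ± 0.16 (edgeR adjusted p = 0.360), and 0.26 when adjusted for plasma cell markers. Slc16a1, the gene of the transporter MCT1, was at 43.6 ± 7.48 and 48.7 ± 7.71 CPM.

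Of the other hypoxia-responsive members, 6 of 7 had a positive log2 fold change, and P4ha1, described above, was the 1 with an unadjusted p under 0.05. When the fit was adjusted for epithelial markers, Bnip3 (-0.0978) and Ddit4 (-0.0747) turned negative, and Ddit4 was close to 0 in the unadjusted fit (0.0055). Mif, the gene of a cytokine-like tautomerase and the member of this group with the highest level per kb, was at 194, 207, 197, 267 and 211 CPM in WT/mut and 191, 199, 203 and 126 CPM in WT. WT/mut replicate 9 was high and WT replicate 5 low, and the rest lay close together (log2 fold change 0.26 ± 0.15, edgeR adjusted p = 0.491). Without WT replicate 5 the fold change of Mif was 0.12, and it was 0.40 and 0.41 when adjusted for epithelial or plasma cell markers. Bnip3, which serves the removal of mitochondria, was at 83.0 ± 12.7 and 73.5 ± 17.1 CPM. Ero1l, the oxidase that forms disulfide bonds in the endoplasmic reticulum, was at 104 ± 7.89 and 92.5 ± 13.0 CPM. Ddit4, an inhibitor of mTORC1 signalling, was at 63.5 ± 11.7 and 63.3 ± 10.00 CPM. Higd1a, a mitochondrial protein gene, was at 112 ± 7.23 and 120.2 ± 26.5 CPM, and Vegfa at 4.76 ± 1.67 and 3.92 ± 1.83 CPM. For each of these 6 genes the group ranges overlapped.

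Because isoenzymes differ in their properties, the share of each within its family was computed per library from counts per kb of exon. Such a share does not depend on library scaling. For each of 7 families, the exact two-sided permutation test over the 9 libraries has a smallest p of 0.00794, which adjusts to 0.0556 when it stands alone. The PHD2 share of Egln1 and Egln3 reached that limit. It was 45.9%, 42.0%, 42.2%, 49.1% and 42.5% in WT/mut replicates 6 to 10 and 28.7%, 39.9%, 35.6% and 37.2% in WT replicates 1, 3, 4 and 5. All WT/mut libraries were above all WT libraries, with means of 44.3% ± 3.10 (SD, n = 5) and 35.3% ± 4.78 (SD, n = 4) (exact permutation adjusted p = 0.0556). The difference of 9.00 percentage points was 6.78 without WT replicate 1, the lowest.

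The PFKP share of the phosphofructokinase genes was 49.7% ± 2.29 in WT/mut and 43.3% ± 6.41 in WT libraries (exact permutation p = 0.0317, adjusted p = 0.111, n = 5 and 4). WT replicate 1 was low at 34.1%, and WT replicate 5 (49.0%) lay inside the WT/mut range. The difference of 6.42 percentage points was 3.35 without WT replicate 1. The LDHA share was 76.9% ± 5.81 against 66.9% ± 9.99 (exact permutation adjusted p = 0.133, n = 5 and 4). WT replicates 3 and 4 (74.1% and 74.2%) lay inside the WT/mut range, and WT replicate 1 was the lowest at 53.0%. The difference fell from 10.01 to 5.37 percentage points without that library. The MCT1 share of the lactate transporters was 54.1% ± 7.81 against 63.8% ± 6.96, and the PDK1 share 26.0% ± 2.79 against 22.5% ± 2.13 (exact permutation adjusted p = 0.133 for both, n = 5 and 4). GLUT1 made up 69.0% ± 3.33 against 72.3% ± 2.57 of the 2 glucose transporters, and hexokinase 2 made up a small part of the hexokinases, at 0.973% ± 0.544 against 0.791% ± 0.125. For these the ranges overlapped. Without WT replicate 5 the MCT1 difference of -9.64 percentage points was -6.19, and without WT/mut replicate 8 the GLUT1 difference of -3.35 was -1.98. The hexokinase 2 difference of 0.182 was -0.0441 without WT/mut replicate 7 and 0.286 without WT/mut replicate 6. The levels of the shares rest on the length of all bases that are exonic in any annotated transcript, such as 13401 bases for Pfkp and 6675 for Pfkl.

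**Figure D3:**
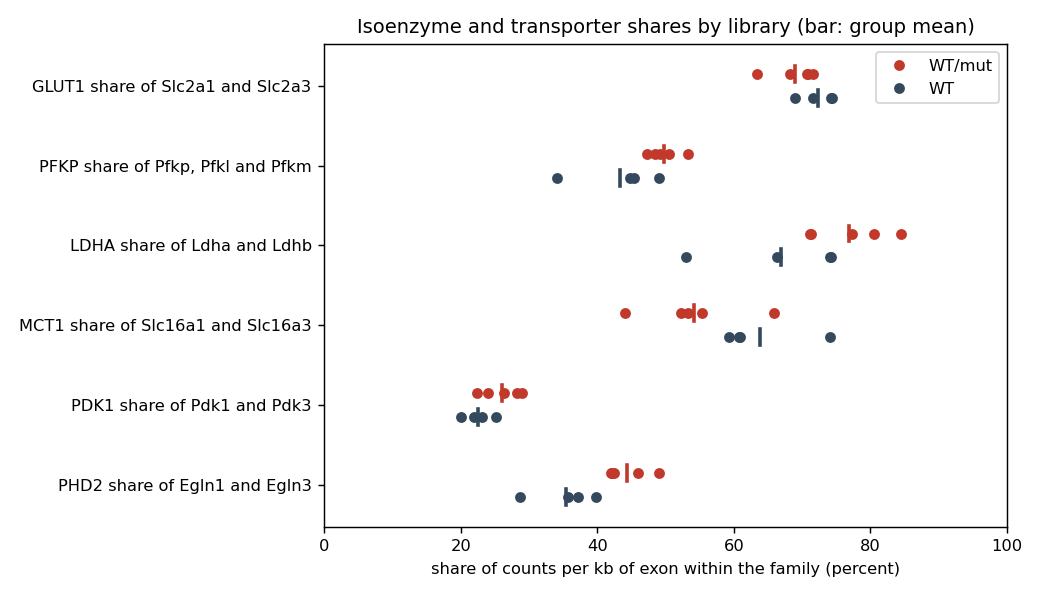
Share of counts per kb of exon taken by 1 isoenzyme or transporter within its family, in percent, for 6 of the 7 families (hexokinase 2, at 0.558% to 1.88%, is not drawn), with 1 point per library and a bar at each group mean. The PHD2 share is the 1 family whose groups do not overlap (42.0% to 49.1% in WT/mut and 28.7% to 39.9% in WT).

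In several of these genes the WT libraries differed among themselves, and in differing directions. WT replicate 1 was the highest of the 9 libraries for 10 of the 32 members, among them Pfkl, Aldoa, Eno1, Pkm, Ldhb and Egln3, and the lowest for 4, Pgam1, Ldha, Vegfa and P4ha1. WT replicate 5 was the lowest for 11, among them Gpi1, Tpi1, Gapdh, Pkm, Slc16a3, Egln1 and Mif, and the highest for Slc16a1 and Hif1a. WT replicates 3 and 4 lay closer to the WT/mut libraries in Gapdh, Ldha and Tpi1. No WT/mut library was the highest for more than 5 members. Without WT replicate 1 or WT replicate 5, 6 and 7 members were higher at an unadjusted p under 0.05. The share over all genes at that p was not computed for these fits.

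Other genes of the same pathways gave a context for these values, from lists that share no gene with the 32. Of 14 tested genes for pyruvate entry into mitochondria and its control, 12 had a negative log2 fold change, with a median of -0.25. At an unadjusted p under 0.05, 3 were lower (6.46% of all genes) and 0 higher (5.69%), and 0 passed over all genes. Mpc1, a subunit of the mitochondrial pyruvate carrier, was at 87.4, 76.8, 86.4, 82.6 and 77.5 CPM in WT/mut replicates 6 to 10 and at 151, 100.3, 78.7 and 152 CPM in WT replicates 1, 3, 4 and 5. WT replicates 1 and 5 were the high ones, and WT replicate 4 lay inside the WT/mut range (log2 fold change -0.56 ± 0.18, edgeR adjusted p = 0.293; -0.33 by limma-voom). Pdhb, a subunit of pyruvate dehydrogenase, was high in the same 2 WT libraries, at 229.7 and 207 CPM, and stood at 118 to 152 CPM in WT/mut and 149 to 149.9 CPM in WT replicates 3 and 4 (log2 fold change -0.39 ± 0.14, edgeR adjusted p = 0.339). This was -0.26 without WT replicate 1 and -0.22 by limma-voom.

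At an unadjusted p under 0.05, 2 of 17 tested HIF subunits and regulators were higher (5.69% of all genes) and 1 lower (6.46%). Of the 17, 0 passed over all genes. Arnt2, a gene for a dimer partner of the HIF family, was at 41.9, 49.5, 44.1, 41.6 and 41.0 CPM in WT/mut and at 18.7, 31.3, 28.4 and 36.4 CPM in WT. Hif1an, which encodes the asparagine hydroxylase that blocks the activity of HIF-1alpha, was at 64.5, 77.4, 63.6, 62.8 and 65.0 CPM against 45.1, 50.2, 60.1 and 53.1 CPM. Both were separated by genotype, as were 2.09% of all genes in that direction and 2.38% in the other. The log2 fold changes were 0.60 ± 0.17 (edgeR adjusted p = 0.260, DESeq2 adjusted p = 0.0474) and 0.36 ± 0.11 (edgeR adjusted p = 0.291, DESeq2 adjusted p = 0.0954). Of 43 tested hypoxia-responsive genes outside the members, 23 had a positive and 20 a negative log2 fold change, with a median of 0.03. At an unadjusted p under 0.05, 2 of these were higher (5.69% of all genes) and 6 lower (6.46%), and 0 passed over all genes. Stc2, the gene of the secreted glycoprotein stanniocalcin 2, was at 37.9, 46.7, 33.4, 32.7 and 40.7 CPM in WT/mut and at 17.1, 22.3, 26.0 and 14.2 CPM in WT (log2 fold change 0.94 ± 0.19, edgeR adjusted p = 0.0987; DESeq2 adjusted p = 0.000748). Gbe1, the glycogen branching enzyme gene, was lower, at 35.8 ± 7.76 against 59.6 ± 15.1 CPM with no overlap (log2 fold change -0.73 ± 0.20, edgeR adjusted p = 0.247; DESeq2 adjusted p = 0.0367). Of 29 tested genes for other glycolytic and gluconeogenic enzymes, 9 were positive and 20 negative, with a median of -0.16. The gluconeogenic gene Fbp2 was at 1.38 to 9.90 against 5.45 to 20.3 CPM and the enolase gene Eno3 at 4.78 to 9.65 against 3.10 to 5.80 CPM, and both overlapped.

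**Figure D4:**
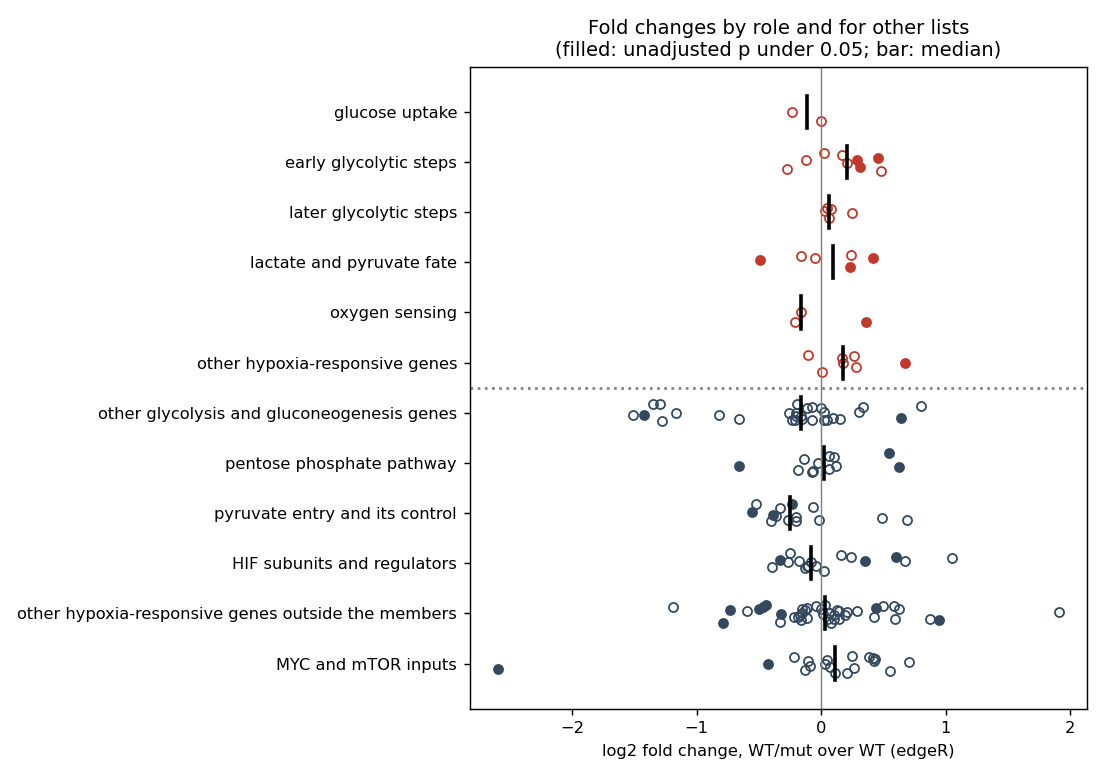
Log2 fold changes (WT/mut over WT, edgeR) of each tested gene, in rows by role for the 32 members (above the dotted line) and for 6 other lists (below it), with filled points for an unadjusted p under 0.05 and a bar at each median. The early steps have a median of 0.21, and the genes of pyruvate entry one of -0.25.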

How the data were processed

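Messenger RNA of sorted Tfh cells was sequenced after a SMART-Seq low-input library kit that does not mark strand, per the labels' protocols. The authors deposited expected counts per gene. The submitters' processing notes name cutadapt, STAR (2.5.3), RSEM (1.3.0) and DESeq2, and mm10 as the build, without roles or order. Which annotation was counted is not given in the sources. Of the members' 288 values, 162 were not whole (tolerance 0.001). All values were rounded before the edgeR, DESeq2 and limma-voom fits, while the isoenzyme shares and their permutation tests used the unrounded values.

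The edgeR 4.0.16 quasi-likelihood F test (R 4.3.3, robust, TMM, no covariate, 5 against 4 libraries) was fitted to the 15521 genes left by filterByExpr, set to a minimum count of 10 and a minimum total of 15. Benjamini-Hochberg adjustment ran over these genes, with a threshold of 0.05, and the test was checked on simulated data. CPM were scaled by TMM, and SE is the absolute log2 fold change over the square root of F. Exon lengths and positions came from GENCODE M21 (GRCm38), the assembly of mm10. Mean chi-square values per gene between libraries of a group were 28.0 to 224, so none agreed within sampling noise. Alternatives were DESeq2 1.42.0, limma-voom (limma 3.58.1), other scalings, no filter, covariates and leaving out each library. Values per library were given for members with an unadjusted p under 0.05, members with separate groups and the member with the highest level per kb in each role. The 2 genes of lowest p were named in each other list. The other members were given by mean or range, except Gapdh, whose values per library were added after they were seen. The members and lists were chosen with earlier results of these data known.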

Additional observations from a re-analysis of the deposited data

Results flagged for a closer look

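In groups of 4 or 5 libraries, a library was singled out where its gap to the nearest other, over the group's range, passed Dixon's 95% critical value. This held in 7 of 80 groups of values, and chance gives about 1 in 20. WT replicate 5 stood apart in Hif1a (4707 CPM, the other WT libraries 3392 to 3466), in Mif (126 CPM, the others 191 to 203) and in the MCT1 share of the lactate transporters (74.2%, the others 59.3% to 60.9%). WT replicate 1 was high in Eno1 (1286 CPM, the others 798 to 871) and WT replicate 3 in Pfkm (18.6 CPM, the others 12.3 to 12.8). WT/mut replicate 9 was high in Mif (267 CPM, the others 194 to 211) and low in the share of all counts on the 32 members (1.44%, the others 1.62% to 1.66%).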

How the results depend on the processing

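The main test called 19 genes in all and 0 members. Over all genes, DESeq2 called 283, limma-voom 29, and the fits with detected genes, epithelial or plasma cell marker share as a covariate 1, 65 and 1; leaving out each library gave 2 to 23. DESeq2 called 3 members. Members higher at an unadjusted p under 0.05 fell to 4 with the plasma cell share. Members lower at that p numbered 0 by library size only, 0 with detected genes and 2 with the epithelial share, and 0 to 2 without 1 library, where members apart and lower numbered 0 to 1. For these fits the shares over all genes were not computed, so these counts have no background beside them. The members' median was 0.0317 with the epithelial and 0.0449 with the plasma cell share, and 0.0567 to 0.16 without 1 library. The hexokinase 2 difference ran from -0.0441 (without WT/mut replicate 7) to 0.286 percentage points.

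Some fold changes turned sign, Hk2 from 0.48 and the others from 0.18 or less in size. With the epithelial share these were Aldoa (-0.0489), Bnip3 (-0.0978), Ddit4 (-0.0747), Eno1 (-0.12), Pkm (-0.0425) and Slc2a3 (-0.14). With the plasma cell share they were Aldoa (-0.0769), Ddit4 (-0.0376), Eno1 (-0.0713), Hk2 (-0.0914), Pkm (-0.0349), Slc16a1 (0.0484) and Slc2a3 (-0.17). With limma-voom they were Higd1a (0.0284), Pdk3 (0.0237) and Pfkl (0.0198). Leaving out 1 library gave ranges across 0 for Aldoa (-0.0710 to 0.14), Ddit4 (-0.0727 to 0.11), Eno1 (-0.0233 to 0.24), Higd1a (-0.20 to 0.0195), Pdk3 (-0.0869 to 0.0167), Pfkl (-0.25 to 0.15), Pkm (-0.0519 to 0.16) and Slc2a3 (-0.0892 to 0.15). The cause was not tested. No paired analysis was possible because the labels pair no libraries and give no litter for them. The fewest counts of a member in a library were 41, which limits Hk2 most.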

Other observations

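Of 12 tested genes of the pentose phosphate pathway and of ribose phosphate use, which branch off glycolysis, 6 were positive and 6 negative, with a median log2 fold change of 0.02 and 0 called over all genes. Prps2, which makes the activated ribose used for nucleotides, was at 120.3, 119, 102, 136 and 94.7 CPM in WT/mut replicates 6 to 10 and at 56.6, 81.6, 87.2 and 88.5 CPM in WT replicates 1, 3, 4 and 5. The groups did not overlap (log2 fold change 0.55 ± 0.15, edgeR adjusted p = 0.252; DESeq2 adjusted p = 0.0326). Rbks, the ribokinase gene, was lower with no overlap, at 5.77 ± 0.878 against 9.14 ± 1.55 CPM (-0.66 ± 0.21, edgeR adjusted p = 0.289). Over all genes, 2.09% were apart and higher and 2.38% apart and lower.

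Of 19 tested genes of the MYC and mTOR inputs to glycolysis, 13 were positive. At an unadjusted p under 0.05, 2 were lower (6.46% of all genes) and 0 higher (5.69%). Rheb, the GTPase that activates mTORC1, was at 109 to 142 CPM in WT/mut and at 196, 132, 119 and 218 CPM in WT replicates 1, 3, 4 and 5 (-0.42 ± 0.17, edgeR adjusted p = 0.368). This was -0.27 without WT replicate 5, -0.21 by limma-voom and -0.67 when adjusted for epithelial markers. The high libraries were WT replicates 1 and 5, as for Mpc1 and Pdhb. Mlxipl, the gene of a glucose-responsive transcription factor, was at most 0.584 CPM in WT/mut and at 0.575 to 5.06 CPM in WT.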
